A study of Mus musculus and Homo sapiens with 43 samples.

Results

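The genes described here were silent in wild type (WT) mouse embryonic stem cells (ESC) and transcribed in ESC whose Pcgf2 gene had been knocked out (KO). A gene was taken if it lay below 1 TPM in both ESC WT libraries and at 3 TPM or more in both ESC Pcgf2 KO libraries, where TPM is a gene's level corrected for transcript length and scaled so that every library has the same total. Hox genes, predicted Gm- and Rik-named genes and 4 genes of the Y chromosome were left out by name. They made up 46 of the 129 genes past both limits, with 5 Hox genes and 37 Gm- or Rik-named genes among them. This left 83 genes of 35245 in the table, or 0.235%, and 0.386% of the 21522 genes below 1 TPM in both ESC WT libraries. The WT and Pcgf2 KO libraries of ESC thus chose the genes, so values there are a description with no test. They enter the tests below through the filter on low values, and through the spread and its trend with level, which all libraries of a table share. A limit of 0.5 TPM in WT would have taken 34 genes and one of 5 TPM in Pcgf2 KO 32.

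RNA-seq was run on E14 mouse ESC and cells differentiated from them, with 2 libraries in each of 12 groups. ESC WT, ESC Pcgf2 KO, ESC Phc1 KO and ESC Phc1-SAM KO (a knock-out of the SAM domain of Phc1) were grown with LIF, 1 µM PD0325901 and 3 µM CHIR99021, a medium that holds ESC in naive pluripotency. Embryoid bodies (EB) of day 3 and day 8, WT and Pcgf2 KO, were grown without these 3 factors, and neural progenitor cells (NPC) of all 4 genotypes were derived with 5 µM retinoic acid, added between day 4 and day 8 of differentiation. The knock-outs were made by CRISPR/Cas9 in ESC lines, and the labels do not say which lines or cultures the 2 libraries of a group came from, so p-values measure the spread between those libraries. WT and Pcgf2 KO of all 4 stages stood in 1 table, and Phc1 KO and Phc1-SAM KO of ESC and NPC in a second one. The second table also names WT columns of ESC and NPC, which were not used because they sum to 381098 to 502815 TPM, against 975902 to 980200 TPM in its knock-out columns. Levels from the second table are set beside the first with no test.

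Polycomb repressive complex 1 (PRC1) marks histone H2A with ubiquitin and compacts chromatin, and it is known for holding developmental genes silent in ESC. Pcgf2 (Mel18) is a core subunit of its canonical form, in which a Cbx protein reads the H3K27 methyl mark and a Phc protein links complexes to each other through its SAM domain. A small and changing fraction of ESC in culture enters a 2-cell-like state, in which genes of the early cleavage embryo such as the Zscan4 family are transcribed and most other ESC do not transcribe them.

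Several facts of the libraries bear on the values below. The Pcgf2 transcript was no lower in ESC labelled Pcgf2 KO (179.9 and 284 TPM) than in WT (155 and 149.5 TPM), so a TPM value does not check the deletion. Eif2s3y, a gene of the Y chromosome, stood at 0.422 and 0.447 TPM in ESC WT and 47.2 and 64.9 TPM in ESC Pcgf2 KO. The WT libraries of EB day 8 stood apart from the other WT libraries, with Eif2s3y at 50.4 and 64.7 TPM against 1.46 and 2.78 TPM on EB day 3 and 1.74 and 1.42 TPM in NPC. Both WT libraries of that stage were alike in this, so no EB day 8 result can be given without them. Summed over 19 naive pluripotency genes, NPC held 105 TPM in both WT libraries and 2796 and 2719 TPM in Pcgf2 KO. The sum over 27 neural progenitor genes was 1997 and 2389 TPM in NPC WT and 384 and 348 TPM in NPC Pcgf2 KO, and 25 of the 26 tested were lower. Such markers moved with many results below, and their part in them was not tested. In RNA from whole cultures, fewer cells of a type and less RNA per cell cannot be told apart.

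In ESC Pcgf2 KO the mean level of the 83 genes ran from 3.06 to 25.0 TPM with a median of 5.12 TPM, against 0 to 0.954 TPM with a median of 0.491 TPM in ESC WT. The released genes were thus transcribed at low to moderate levels. The highest were Eif4a3l1 (22.2 and 27.8 TPM), Tmem92 (18.8 and 21.7 TPM) and Eif4a3l2 (18.6 and 21.7 TPM). Close to the limit of 3 TPM, Caskin1 (3.01 and 3.68 TPM) and Osm (3.04 and 3.08 TPM) were taken, while Adora2b (3.33 and 2.95 TPM) and Tcstv1 (2.90 and 3.09 TPM) were not. Close to the limit of 1 TPM in WT, Qpct (0.993 and 0.914 TPM) was taken and Gbgt1 (1.00 and 0.843 TPM) was not.

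Grouped by what they encode, 9 of the 83 genes belong to a list of 2-cell-like genes and 15 are relatives of gene families of the early embryo (Zscan4 and Obox4 pseudogenes, Pramel, Eif4a3-like, Eif1ad and Trim43 genes). A further 6 act in transcription, chromatin or RNA export, 10 in immunity, 4 in muscle, 10 as neuronal proteins, receptors, channels or transporters, and 5 in matrix, adhesion or cytoskeleton. Metabolic enzymes number 5, genes of testis and cilium 4, and other genes and pseudogenes 15. The 9 genes were among 25 measured genes of the 2-cell-like list, of which 18 were silent in ESC WT. Of 157 developmental transcription factors known as Polycomb targets, 124 were silent in ESC WT and 1, Tlx3, was among the 83. Of 83 secreted signals and receptors of that kind, 57 were silent and 0 were among them, and 1 of 70 germline genes (Ldhc), 1 of 30 neuron genes (Nefm) and 1 of 35 PRC1 subunits (Cbx8) were. The rule had left out 5 Hox genes that passed both limits (Hoxa9, Hoxa10, Hoxc6, Hoxd9 and Hoxd13), so they are not in these counts. All these counts follow from the rule and were not tested.

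**Figure D1:**
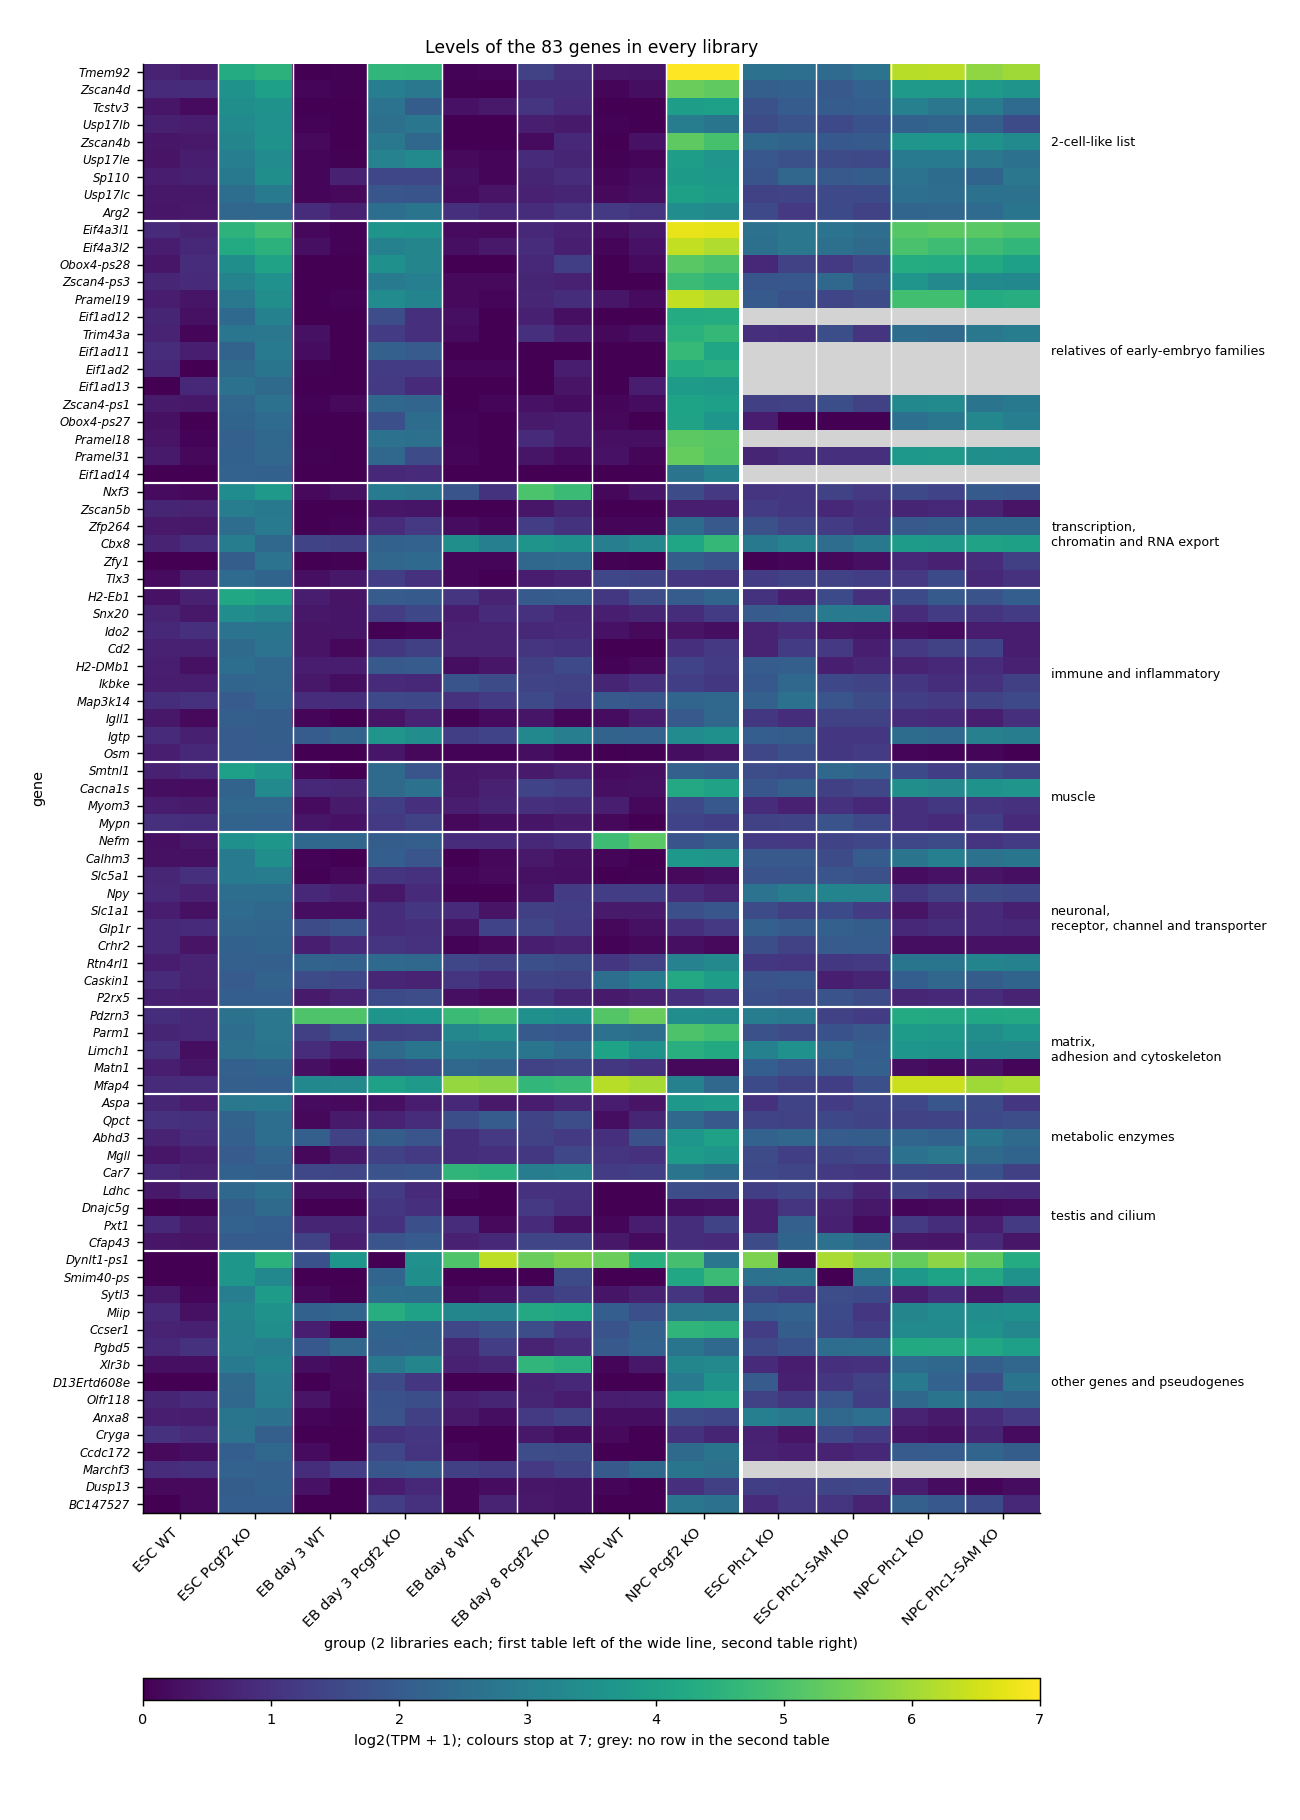
Each row is 1 of the 83 genes, ordered by role and then by level in ESC Pcgf2 KO, and each column is 1 library; colour gives log2(TPM + 1). The columns of ESC WT are dark by choice of the genes, the first 24 rows are dark in the WT groups and mostly brightest in NPC Pcgf2 KO, and the 7 grey rows have no entry in the second table.

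The genes of the early embryo were all higher in Pcgf2 KO on EB day 3 and in NPC, as given below, so the promoters of 3 of them are shown. The windows run from 250 bases before to 50 bases after the start of the gene, come from RefSeq (GRCm38.p6) and are written 5′ to 3′ on the gene's strand with each CG in capitals. All 3 lie on the minus strand of chromosome 7, Zscan4d at chr7:11166099-11166398, Zscan4b at chr7:10905001-10905300 and Usp17lb at chr7:104842534-104842833.
Zscan4d: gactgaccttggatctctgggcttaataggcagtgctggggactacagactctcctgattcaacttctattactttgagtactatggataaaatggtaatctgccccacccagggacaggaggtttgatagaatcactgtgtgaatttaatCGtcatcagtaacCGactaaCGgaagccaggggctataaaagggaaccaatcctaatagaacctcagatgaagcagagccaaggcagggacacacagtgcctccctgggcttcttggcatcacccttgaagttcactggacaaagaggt
Zscan4b: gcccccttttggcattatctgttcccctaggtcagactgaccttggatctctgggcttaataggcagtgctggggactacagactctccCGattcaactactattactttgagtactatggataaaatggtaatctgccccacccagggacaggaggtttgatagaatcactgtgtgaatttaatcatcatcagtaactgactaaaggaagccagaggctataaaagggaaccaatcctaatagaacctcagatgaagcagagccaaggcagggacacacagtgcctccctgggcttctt
Usp17lb: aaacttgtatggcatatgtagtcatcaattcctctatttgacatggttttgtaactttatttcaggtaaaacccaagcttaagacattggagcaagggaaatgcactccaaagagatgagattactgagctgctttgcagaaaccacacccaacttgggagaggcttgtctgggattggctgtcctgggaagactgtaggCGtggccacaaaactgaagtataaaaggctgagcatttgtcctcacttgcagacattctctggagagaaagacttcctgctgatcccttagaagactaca
The windows hold 3, 1 and 1 CG. Over the best ungapped overlap of 266 bases, the Zscan4b and Zscan4d windows were 97.7% identical. Windows of other families were less alike, with 81.5% over 243 bases for Usp17lb and Usp17lc and 32.8% over 253 bases for Pramel19 and Pramel31. The transcripts were not compared. Members of multicopy families can share reads, and how the authors divided such reads is not stated, so the split of TPM among copies of the Zscan4, Usp17l, Eif1ad, Pramel and Obox4 families is uncertain.

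Zscan4d encodes a zinc finger protein of the 2-cell embryo that is known for its part in telomere maintenance. It stood at 0.796 and 0.852 TPM in ESC WT and 11.1 and 14.5 TPM in ESC Pcgf2 KO. On EB day 3 the WT libraries held 0.0867 and 0.0266 TPM and the Pcgf2 KO libraries 6.97 and 5.98 TPM (log2 difference 2.82 ± 0.14, limma adjusted p = 5.6e-08). Every KO library was thus far above every WT library. In NPC the levels were 0.0908 and 0.206 TPM in WT and 41.1 and 37.8 TPM in Pcgf2 KO (log2 difference 5.14 ± 0.14, limma adjusted p = 7.2e-11). On EB day 8 they were 0.0343 and 0 TPM and 0.904 and 0.875 TPM (log2 difference 0.89 ± 0.14, limma adjusted p = 0.00034). The groups did not overlap at any of the 3 stages, but on EB day 8 both KO libraries stayed below 1 TPM. Here and below, limma was run on log2(TPM + 1) over the 17938 genes that reached 1 TPM in 2 libraries or more, with Benjamini-Hochberg adjustment at 0.05.

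Tmem92 (chr11:94777217-94782703), a membrane protein gene used as a marker of the 2-cell-like state, reached the highest level of the 83 genes. Its WT libraries held 0.621 and 0.455 TPM in ESC, 0 and 0.0298 TPM on EB day 3, 0.0483 and 0.0823 TPM on EB day 8 and 0.342 and 0.314 TPM in NPC. The Pcgf2 KO libraries held 18.8 and 21.7, then 23.3 and 22.7, then 1.59 and 1.02, and 181 and 163 TPM at the same stages. Tmem92 was therefore silent in all 8 WT libraries and transcribed in every KO library, least on EB day 8. Its difference was 4.56 on EB day 3 (limma adjusted p = 3.3e-09), 1.10 on EB day 8 (limma adjusted p = 7.3e-05) and 7.02 in NPC (limma adjusted p = 9.9e-12), in log2 units.

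Eif4a3l1 (chr6:136327539-136329983), a relative of the exon junction helicase Eif4a3, took the same course. Its Pcgf2 KO libraries held 22.2 and 27.8 TPM in ESC, 11.3 and 10.8 TPM on EB day 3, 0.744 and 0.568 TPM on EB day 8 and 108 and 104 TPM in NPC. The 8 WT libraries lay between 0.0534 and 0.774 TPM. In NPC its difference was 6.40 log2 units (limma adjusted p = 1.5e-11), and on EB day 8 it was 0.53 (limma adjusted p = 0.0075), a call that ended without EB day 8 Pcgf2 KO replicate 1 (limma adjusted p = 0.06). Pramel19, a gene of the leucine-rich PRAME family, stood at 5.98 and 9.89 TPM in ESC Pcgf2 KO and rose from 0.329 and 0.143 TPM in NPC WT to 81.5 and 71.5 TPM in NPC Pcgf2 KO (log2 difference 5.97 ± 0.19, limma adjusted p = 2.4e-10). Obox4-ps28, a pseudogene of the oocyte homeobox family, rose from 0.0141 and 0.0155 to 10.4 and 8.1 TPM on EB day 3 (log2 difference 3.33 ± 0.23, limma adjusted p = 7.5e-07). These 3 relatives stayed below 1 TPM in every WT library.

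Across the 24 genes of the 2-cell-like list and its relatives, all 24 rose on EB day 3 with a median difference of 2.29 log2 units. On EB day 8, 13 rose and 0 fell, with a median of 0.50, and in NPC 24 rose with a median of 4.35. The count of 13 on EB day 8 was 8 without EB day 8 Pcgf2 KO replicate 1, 7 without EB day 8 WT replicate 2, 6 with quantile normalization and 3 with a pseudocount of 5. For 23 of the 24 the highest Pcgf2 KO mean was that of NPC, and for Usp17lb, a deubiquitinase gene, it was that of ESC. Summed over the 18 of them that both tables list, the Pcgf2 KO libraries held 161 and 204 TPM in ESC, 120 and 114 TPM on EB day 3, 12.7 and 12.4 TPM on EB day 8, and 756 and 684 TPM in NPC. The WT libraries held 8.44 and 7.99 TPM in ESC and between 1.66 and 3.77 TPM at the later stages. The sum was thus higher in every KO library than in every WT library, and lowest on EB day 8 among the KO stages. Naive pluripotency genes moved beside them: their sum in Pcgf2 KO was 3629 and 3325 TPM on EB day 3, 1701 and 1741 TPM on EB day 8 and 2796 and 2719 TPM in NPC, and 18, 16 and 19 of 19 were higher than in WT. Genes of the trophectoderm, the first lineage of the placenta, moved with them in NPC, where the sum over 23 of them was 1249 and 1171 TPM in WT and 9881 and 9933 TPM in Pcgf2 KO, and 19 of 21 tested were higher. On EB day 3 it was 248.7 and 252.1 TPM in WT and 345.6 and 374.3 TPM in Pcgf2 KO (11 higher, 4 lower). By EB day 8 the sums were 3588 and 3830 TPM in WT and 3711 and 3446 TPM in Pcgf2 KO (7 higher, 5 lower). The part of either list in the values of the early embryo genes was not tested. The call of Eif1ad13 on EB day 3 ended without EB day 3 Pcgf2 KO replicate 1 (limma adjusted p = 0.053).

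**Figure D2:**
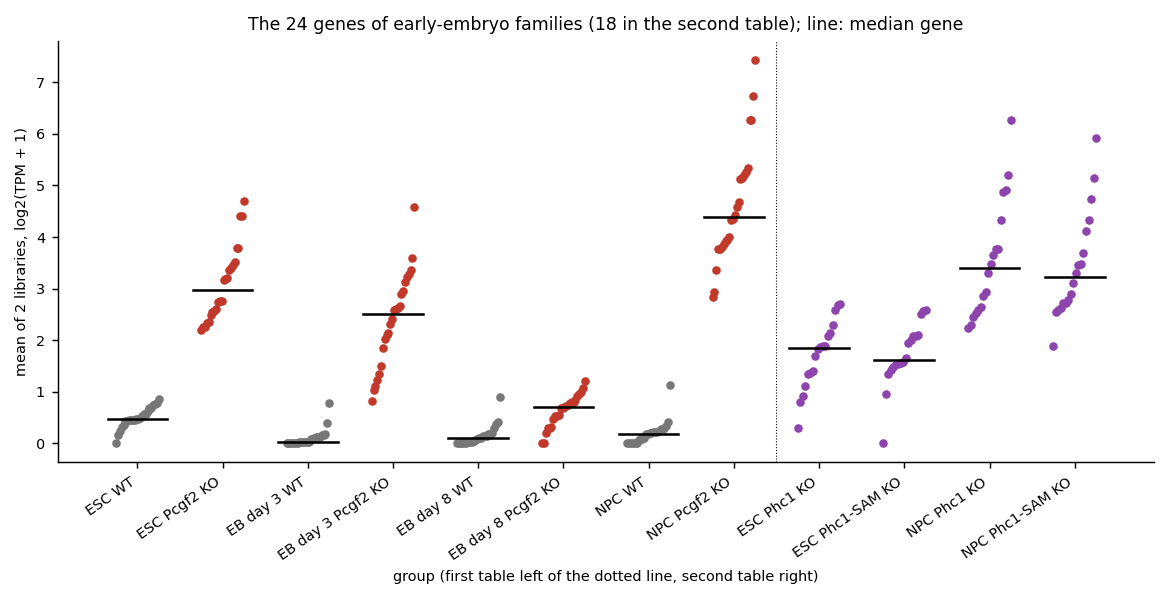
Points give the mean of 2 libraries, as log2(TPM + 1), for each of the 24 early embryo genes in each group, and the black line marks the median gene. The Pcgf2 KO groups lie above WT at each stage, least on EB day 8 and most in NPC; the Phc1 KO and Phc1-SAM KO groups stand in the second table, which lists 18 of the genes.

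Other genes of the same list that missed the rule moved with them. Of 16 genes of the 2-cell-like list outside the 83, 13 passed the filter and were tested. Of these, 12 were higher on EB day 3, 7 on EB day 8 (3 with a pseudocount of 5) and 13 in NPC. At each stage 0 were lower. Of all tested genes 16.7%, 20.6% and 31.5% were higher at these stages. Genes near 0 in WT could pass the filter only through Pcgf2 KO libraries, and they had almost no room to fall. The counts are thus a description. Zscan4f missed the rule because ESC WT already held 5.88 and 4.4 TPM, and ESC Pcgf2 KO held 60.7 and 86.1 TPM. In NPC it stood at 1.21 and 0.623 TPM in WT and 254 and 208 TPM in Pcgf2 KO (log2 difference 6.93 ± 0.22, limma adjusted p = 2.2e-10). Duxf3, a copy of the Dux factor that switches on the 2-cell program, was listed at 0 and 0 TPM in NPC WT and stood at 3.99 and 3.66 TPM in NPC Pcgf2 KO (limma adjusted p = 1.6e-09). In ESC Pcgf2 KO, Duxf3 stood at 0.86 and 0.817 TPM, below the limit of 3 TPM.

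Over all 83 genes, 67 were higher and 4 lower in Pcgf2 KO than in WT on EB day 3, where 16.7% of all tested genes were higher and 31.9% lower. In NPC 68 were higher and 5 lower (3 lower with a filter of 5 TPM), against 31.5% and 34.7% of all genes. On EB day 8, 35 were higher and 5 lower, against 20.6% and 17.1%. The median difference of the 83 was 1.07, 1.74 and 0.36 log2 units on EB day 3, in NPC and on EB day 8, beside −0.11, −0.03 and 0.04 over all genes. The share of the 83 that rose, 80.7% on EB day 3, 81.9% in NPC and 42.2% on EB day 8, stood above the share of all genes at each stage. Among 4196 other tested genes that were silent in ESC WT, 14.4% were higher on EB day 3, 28.1% in NPC and 13.3% on EB day 8. These missed the rule or were left out by name, and they could pass the filter through any libraries, later WT groups included. The sets thus differ by the rule, and their shares side by side are a description. Since 55 of the 83 genes lay below 1 TPM in all 8 WT libraries, these had almost no room to fall. All 83 passed the filter on low values through their ESC Pcgf2 KO libraries, which entered neither side of these comparisons. The count of 35 on EB day 8 was 21 with a pseudocount of 5 and 23 with quantile normalization, and the count of 4 lower on EB day 3 was 2 without EB day 3 WT replicate 1, WT replicate 2 or Pcgf2 KO replicate 1. With median-of-ratios scaling, the background on EB day 3 was 22.2% higher and 24.1% lower, and 69 of the 83 were higher and 4 lower.

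The Pcgf2 KO effect itself differed between stages. From EB day 3 to EB day 8 the signed difference became lower for 41 of the 83 genes and higher for 5, where 12.6% and 26.2% of all genes did so. From EB day 8 to NPC it became higher for 51 and lower for 9, against 25% and 30.6% of all genes. These contrasts share the EB day 8 libraries. In the early embryo genes it became lower for 20 of 24 toward EB day 8 and higher for 24 of 24 toward NPC. In the other 59 genes it became lower for 21 and higher for 5 in the first contrast, and higher for 27 and lower for 9 in the second.

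**Figure D3:**
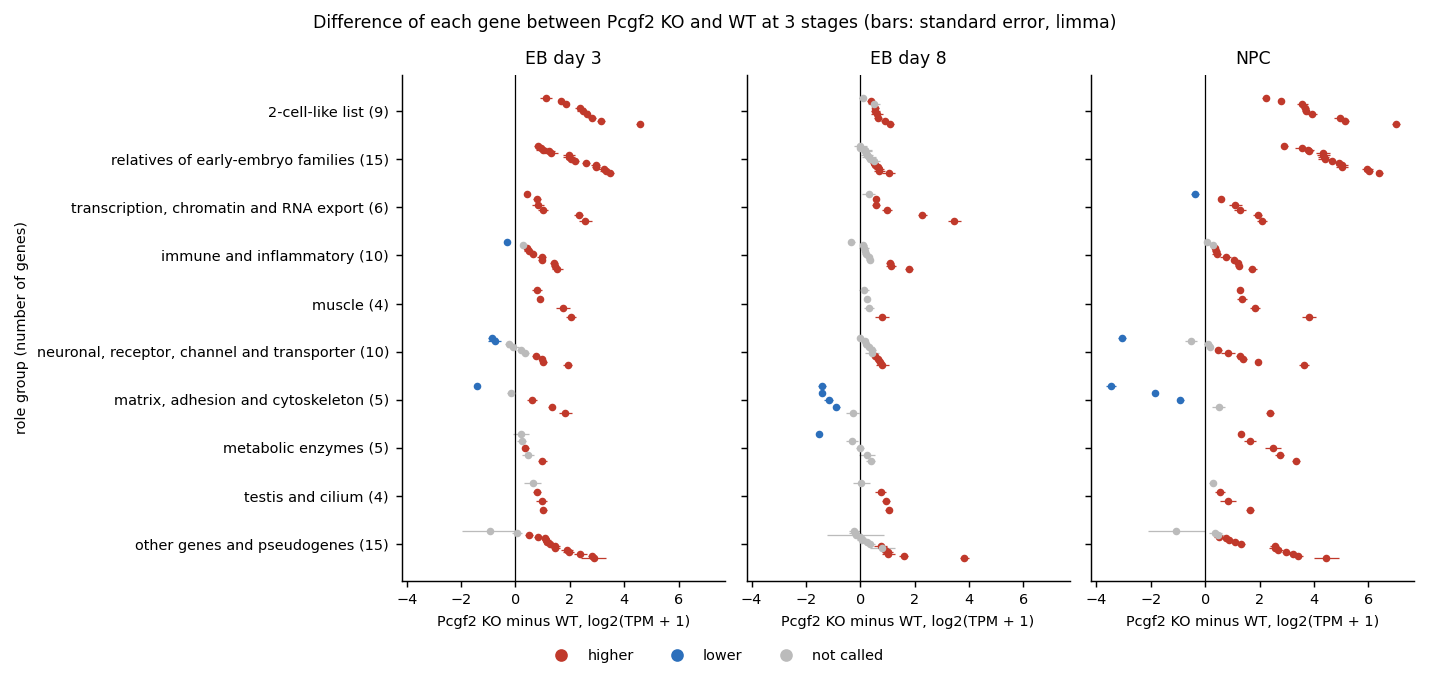
Each point is 1 gene's difference between Pcgf2 KO and WT in log2(TPM + 1), with its standard error, for EB day 3, EB day 8 and NPC; red marks higher, blue lower and grey not called by limma at an adjusted p of 0.05. The 24 early embryo genes are all to the right on EB day 3 and in NPC, and matrix genes lie to the left on EB day 8.

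By pattern, 30 of the 83 genes rose at all 3 stages and 29 rose on EB day 3 and in NPC but were not called on EB day 8. Another 5 (Abhd3, Aspa, Pxt1, Qpct and Rtn4rl1) rose in NPC only among the 3. Of the 83, 77 rose at 1 stage or more. The share of all genes with each pattern was not computed, so these counts cannot be called many or few. The split between 30 and 29 rests on the EB day 8 calls. There the 35 higher genes became 21 with a pseudocount of 5 and 23 with quantile normalization. The 6 of the 83 that rose at none included Pdzrn3, which fell at all 3, Nefm, which fell in NPC, and Ido2, which fell on EB day 3. The others were Dynlt1-ps1, Osm and Pgbd5, which were not called. The Ido2 call ended without any 1 of the 4 EB day 3 libraries (limma adjusted p from 0.07 to 0.13).

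Among the 6 genes of transcription, chromatin and RNA export, 6 rose on EB day 3, 5 on EB day 8 and 5 in NPC. Tlx3 fell in NPC. Across all tested genes 16.7%, 20.6% and 31.5% rose at these stages, and 34.7% fell in NPC. With a filter of 5 TPM, which leaves fewer genes to test, 3, 2 and 3 of the 6 rose. Nxf3 (chrX:136071523-136139579), an X-linked relative of the mRNA export factor Nxf1, stood at 0.148 and 0.113 TPM in ESC WT and 9.68 and 12.9 TPM in ESC Pcgf2 KO. Unlike the early embryo genes, it was highest on EB day 8, with 2.54 and 1.04 TPM in WT and 31.1 and 26.3 TPM in Pcgf2 KO (log2 difference 3.46 ± 0.24, limma adjusted p = 1.4e-06). In NPC Nxf3 stood at 0.114 and 0.327 TPM and 2.08 and 1.24 TPM (log2 difference 1.11 ± 0.24, limma adjusted p = 0.0018), and the effect was smaller there than on EB day 8 (log2 difference -2.35 ± 0.35, limma adjusted p = 0.00013). Zfy1, a zinc finger gene of the Y chromosome, stood at 0 and 0.0169 TPM in ESC WT and 3.21 and 5.33 TPM in ESC Pcgf2 KO, and at 0.0672 and 0.08 and then 4.13 and 4.25 TPM in WT and Pcgf2 KO on EB day 8 (log2 difference 2.27 ± 0.17, limma adjusted p = 1.8e-06). Eif2s3y of the same chromosome was low in WT of the other 3 stages but at 50.4 and 64.7 TPM in WT EB day 8, so the 2 genes did not move alike at that stage. In the second table Zfy1 stood at 0.0323 and 0.0787 TPM in ESC Phc1 KO and 0.108 and 0.226 TPM in ESC Phc1-SAM KO. The part of Y chromosome content in the Zfy1 values was not tested. Zscan5b, a zinc finger gene, stood at 6.68 and 6.15 TPM in ESC Pcgf2 KO and stayed below 1 TPM in every other library of the first table.

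Cbx8, the chromodomain subunit of PRC1 that replaces Cbx7 as ESC differentiate, stood at 0.577 and 0.857 TPM in ESC WT and 6.63 and 4.04 TPM in ESC Pcgf2 KO. WT cells raised it later, to 10.2 and 7.1 TPM on EB day 8 and 7.04 and 8.5 TPM in NPC. In NPC Pcgf2 KO it stood at 16.6 and 24.3 TPM, above both WT libraries (log2 difference 1.27 ± 0.23, limma adjusted p = 0.00039). On EB day 8 Pcgf2 KO held 11.2 and 10.3 TPM, with no call (log2 difference 0.30 ± 0.23, limma adjusted p = 0.33). On EB day 3 the KO was higher, at 3.56 and 3.56 TPM against 1.68 and 1.49 TPM (log2 difference 0.82 ± 0.23, limma adjusted p = 0.011), a call that ended without EB day 3 WT replicate 2 (limma adjusted p = 0.061). ESC Phc1 KO held 6.17 and 7.67 TPM and ESC Phc1-SAM KO 4.64 and 6.14 TPM in the second table. Tlx3, a homeobox gene of sensory and relay neurons, stood at 4.47 and 3.8 TPM in ESC Pcgf2 KO and nowhere else above 2 TPM. It rose on EB day 3, from 0.222 and 0.367 to 1.45 and 1.01 TPM (log2 difference 0.78 ± 0.15, limma adjusted p = 0.0012). In NPC it was lower in Pcgf2 KO, at 1.14 and 1.07 TPM against 1.78 and 1.73 TPM (log2 difference -0.39 ± 0.15, limma adjusted p = 0.039), a call that ended without any 1 of the 4 NPC libraries (limma adjusted p from 0.089 to 0.13).

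Of the 10 immune genes, 8 rose and 1 fell on EB day 3, 3 rose on EB day 8 and 8 rose in NPC. Across all tested genes 16.7% rose and 31.9% fell on EB day 3, 20.6% rose on EB day 8 and 31.5% rose in NPC. The 8 in NPC were 5 without NPC WT replicate 1, where H2-Eb1 (limma adjusted p = 0.052), Ikbke (limma adjusted p = 0.16) and Snx20 (limma adjusted p = 0.15) lost the call. With a filter of 5 TPM, 3 rose on EB day 3 and 3 in NPC. H2-Eb1 (chr17:34305867-34316674), a chain of the class II antigen-presenting complex, stood in ESC Pcgf2 KO at 16.8 and 15.2 TPM against 0.277 and 0.567 TPM in WT. On EB day 3 it stood at 0.441 and 0.303 TPM in WT and 3.03 and 2.97 TPM in Pcgf2 KO (log2 difference 1.55 ± 0.19, limma adjusted p = 4.8e-05), well below its level in ESC Pcgf2 KO. H2-DMb1, which loads peptides onto the same complex and lies near H2-Eb1, stood at 4.81 and 4.04 TPM in ESC Pcgf2 KO and rose on EB day 3 from 0.449 and 0.45 to 2.89 and 3.01 TPM (log2 difference 1.45 ± 0.14, limma adjusted p = 7.4e-06). Igtp, an interferon-induced GTPase, was at 3 TPM or more in both WT libraries of EB day 3 and NPC as well, and was higher in Pcgf2 KO at all 3 stages, as on EB day 8 with 1.44 and 1.64 TPM in WT and 8.61 and 7.03 TPM in Pcgf2 KO (log2 difference 1.79 ± 0.14, limma adjusted p = 2.4e-06). Osm, a cytokine of the LIF family, stood at 3.04 and 3.08 TPM in ESC Pcgf2 KO and 0.494 and 0.756 TPM in ESC WT, and at 0.344 TPM or less in every library of the later stages. Ido2, an enzyme of tryptophan breakdown, stood at 5.32 and 5.65 TPM in ESC Pcgf2 KO and below 1 TPM in every other library of both tables.

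All 4 muscle genes rose on EB day 3 and in NPC, where 16.7% and 31.5% of all tested genes were higher. A list of cardiac and muscle genes, with 0 of the 83 on it, was split. Of 20 tested, 6 were higher and 5 lower on EB day 3, 4 and 7 on EB day 8, and 5 and 8 in NPC. Of the 4 muscle genes 1, Cacna1s, rose on EB day 8. That call ended without any 1 of the 4 EB day 8 libraries (limma adjusted p from 0.076 to 0.14). With a filter of 5 TPM, 2 rose on EB day 3 and 2 in NPC. Smtnl1, a regulator of contraction, stood at 14.6 and 11.6 TPM in ESC Pcgf2 KO and 0.575 and 0.721 TPM in WT. It rose on EB day 3 from 0.095 and 0 to 4.33 and 2.56 TPM (log2 difference 2.06 ± 0.18, limma adjusted p = 4.2e-06). Cacna1s, the calcium channel of skeletal muscle, rose in NPC from 0.221 and 0.235 to 17.6 and 15.4 TPM (log2 difference 3.83 ± 0.26, limma adjusted p = 1.4e-07). Its ESC Pcgf2 KO libraries, 3.71 and 9.19 TPM, differed by more than those of any other of the 83 genes, as a ratio. Myom3 and Mypn, proteins of the sarcomere, stayed below 3 TPM outside ESC Pcgf2 KO.

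The 10 genes of neurons, receptors, channels and transporters were split. On EB day 3, 4 were higher and 2 lower, on EB day 8, 4 were higher, and in NPC 6 were higher and 1 lower. Across all tested genes 16.7%, 20.6% and 31.5% were higher at these stages, and 31.9%, 17.1% and 34.7% lower. The 4 on EB day 8 were 2 without Pcgf2 KO replicate 2 (limma adjusted p = 0.088 for Crhr2 and 0.12 for Npy) or WT replicate 1 (limma adjusted p = 0.077 for Crhr2 and 0.054 for Npy) of that stage. The fall of Glp1r, a receptor for a gut hormone, on EB day 3 was lost without any 1 of the 4 libraries of that stage (limma adjusted p from 0.053 to 0.13). With a filter of 5 TPM, 2 were higher on EB day 3, 1 on EB day 8 and 3 in NPC. Nefm (chr14:68119545-68125004), the medium chain of neurofilaments, stood at 0.22 and 0.335 TPM in ESC WT and 10.5 and 11.9 TPM in ESC Pcgf2 KO. WT NPC held 27.4 and 36 TPM, and NPC Pcgf2 KO 2.56 and 3.17 TPM (log2 difference -3.07 ± 0.14, limma adjusted p = 5.3e-09). The order of the genotypes in NPC was thus opposite to that in ESC, and its groups did not overlap. On EB day 3 the levels were 4.02 and 3.93 TPM in WT and 3.18 and 3.33 TPM in Pcgf2 KO, with no call (log2 difference -0.23 ± 0.14, limma adjusted p = 0.23). Neural progenitor genes were lower in NPC Pcgf2 KO as well, in 25 of 26 tested, and their part in the Nefm value was not tested. Caskin1, a synaptic scaffold protein, fell on EB day 3 from 2.01 and 1.86 to 0.671 and 0.589 TPM (log2 difference -0.85 ± 0.16, limma adjusted p = 0.00092) and rose in NPC from 4.78 and 6.37 to 17.8 and 14.2 TPM (log2 difference 1.38 ± 0.16, limma adjusted p = 1e-05). Npy, a neuropeptide, stood at 4.81 and 4.81 TPM in ESC Pcgf2 KO, at 5.41 and 6.61 TPM in ESC Phc1 KO and at 7.87 and 7.71 TPM in ESC Phc1-SAM KO. Slc5a1, the glucose transporter of gut and kidney, stood at 6.34 and 6.67 TPM in ESC Pcgf2 KO and at 1.12 TPM or less in all libraries of the later stages in the first table.

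All 5 genes of matrix, adhesion and cytoskeleton reached 3 TPM in both WT libraries of a later stage. On EB day 3, 3 were higher and 1 lower in Pcgf2 KO, on EB day 8, 4 were lower, and in NPC 1 was higher and 3 lower, or 2 higher without NPC WT replicate 1. Across all tested genes 16.7% were higher and 31.9% lower on EB day 3, 20.6% and 17.1% on EB day 8, and 31.5% and 34.7% in NPC. Mfap4, a microfibril protein, stood at 0.806 and 0.854 TPM in ESC WT and 3.36 and 3.24 TPM in ESC Pcgf2 KO. On EB day 8 WT held 58.6 and 54.5 TPM and Pcgf2 KO 24 and 25.3 TPM (log2 difference -1.17 ± 0.18, limma adjusted p = 0.00036). In NPC WT held 75.4 and 67.3 TPM and Pcgf2 KO 7.37 and 4.1 TPM (log2 difference -3.47 ± 0.18, limma adjusted p = 1.1e-08). Mfap4 was thus lower in Pcgf2 KO at both stages, with no overlap. The Phc1 KO and Phc1-SAM KO libraries of NPC, in the second table, held 85.4 and 85.3 TPM and 63.1 and 67.8 TPM, nearer to WT than to Pcgf2 KO. Pdzrn3, a ubiquitin ligase with PDZ domains, stood at 0.894 and 0.728 TPM in ESC WT, 5.2 and 5.9 TPM in ESC Pcgf2 KO, and 32.5 and 32.4 TPM in WT against 11.4 and 11.9 TPM in Pcgf2 KO on EB day 3 (log2 difference -1.40 ± 0.10, limma adjusted p = 1.3e-06). Pdzrn3 was lower in Pcgf2 KO on EB day 8 (log2 difference -1.39 ± 0.10, limma adjusted p = 2.2e-06) and in NPC too (log2 difference -1.84 ± 0.10, limma adjusted p = 2.7e-08).

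Parm1, a mucin-like membrane protein, was lower in Pcgf2 KO on EB day 8, with 8.52 and 9.98 TPM in WT and 2.91 and 2.71 TPM in KO (log2 difference -1.42 ± 0.14, limma adjusted p = 1.9e-05). In NPC it was higher, with 5.15 and 4.81 TPM and 32.1 and 28.7 TPM (log2 difference 2.39 ± 0.14, limma adjusted p = 4.3e-08). Matn1, a cartilage matrix protein, fell on EB day 8 from 4.12 and 3.65 to 1.56 and 1.75 TPM (log2 difference -0.88 ± 0.12, limma adjusted p = 0.0002). Limch1, an actomyosin regulator, had 15.5 and 11.1 TPM in NPC WT and 19.8 and 18.1 TPM in NPC Pcgf2 KO, with no call (log2 difference 0.49 ± 0.23, limma adjusted p = 0.086). Fibroblast genes summed to 3404 and 3506 TPM in WT EB day 8 and 1579 and 1468 TPM in Pcgf2 KO, and 16 of 19 tested were lower, as were 14 of 19 in NPC. Of 31 endoderm genes 28 were lower on EB day 8. The part of either list in the fall of matrix genes was not tested.

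All 5 metabolic enzymes rose in NPC, where 31.5% of all tested genes were higher. Aspa, which splits N-acetylaspartate, stood at 6.04 and 6.11 TPM in ESC Pcgf2 KO and rose in NPC from 0.456 and 0.28 to 12.2 and 13.6 TPM (log2 difference 3.34 ± 0.15, limma adjusted p = 4.6e-09). Mgll, which breaks down monoacylglycerols, rose in NPC from 1.11 and 1.01 to 13.5 and 12 TPM (log2 difference 2.74 ± 0.16, limma adjusted p = 3.7e-08). Both were near 1 TPM or below in NPC WT. Car7, a carbonic anhydrase, was raised by WT cells to 23 and 20.6 TPM on EB day 8, where Pcgf2 KO held 6.7 and 7.28 TPM (log2 difference -1.51 ± 0.12, limma adjusted p = 2.4e-06). In NPC its order was opposite, with 1.38 and 1.46 TPM in WT and 5.47 and 4.54 TPM in Pcgf2 KO (log2 difference 1.30 ± 0.12, limma adjusted p = 1.1e-06).

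**Figure D4:**
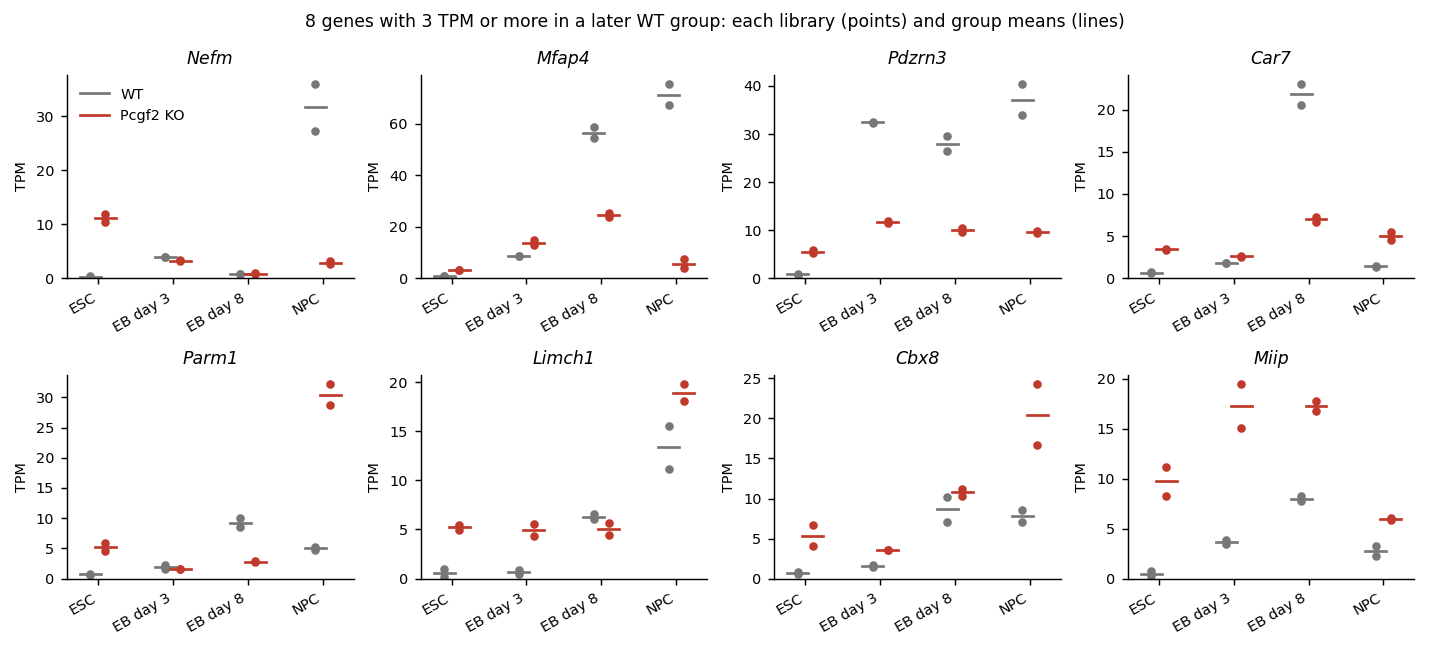
Points are single libraries and bars group means, in TPM, for 8 of the 13 genes that reached 3 TPM in both WT libraries of a later stage. Nefm, Mfap4, Pdzrn3 and Car7 have WT maxima that Pcgf2 KO cells did not reach, and Parm1, Limch1, Cbx8 and Miip were highest in Pcgf2 KO.

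Of the 4 genes of testis and cilium, 3 rose on EB day 3, 3 on EB day 8 and 3 in NPC. The shares of all tested genes that rose at these stages were 16.7%, 20.6% and 31.5%. The 3 in NPC were 1 without NPC Pcgf2 KO replicate 2, where Cfap43 (limma adjusted p = 0.07) and Pxt1 (limma adjusted p = 0.2) lost the call, and 1 with quantile normalization. Ldhc, the lactate dehydrogenase of testis, was listed at 0 TPM in both NPC WT libraries and rose to 2.16 and 2.11 TPM in Pcgf2 KO (limma adjusted p = 1.4e-06). Dnajc5g, a cochaperone gene of testis, was listed at 0 TPM in both WT libraries of EB day 8 and rose to 1.23 and 0.907 TPM in Pcgf2 KO (limma adjusted p = 6.3e-05). In ESC Pcgf2 KO, Ldhc stood at 4.07 and 4.98 TPM and Dnajc5g at 3.36 and 4.38 TPM, above every later library of the first table.

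In the last 15 genes, 13 rose on EB day 3, 6 on EB day 8 and 12 in NPC, and 0 fell. The shares of all tested genes were 16.7%, 20.6% and 31.5% for a rise at these stages and 31.9%, 17.1% and 34.7% for a fall. Xlr3b (chrX:73192150-73202930), a gene of the X-linked Xlr family that is known for imprinted expression in mouse brain, was silent in all 8 WT libraries, at 0.0716 to 0.675 TPM. Its Pcgf2 KO libraries held 6.53 and 7.91 TPM in ESC, 6.12 and 8.16 TPM on EB day 3, 23.2 and 20.6 TPM on EB day 8 and 8.26 and 8.88 TPM in NPC. Xlr3b was thus transcribed in every Pcgf2 KO library and highest on EB day 8, where the early embryo genes were lowest. The effect was larger on EB day 8 than on EB day 3 (log2 difference 1.00 ± 0.23, limma adjusted p = 0.0047) and smaller in NPC than on EB day 8 (log2 difference -0.84 ± 0.23, limma adjusted p = 0.0078). Miip, an inhibitor of cell migration, rose on EB day 3 from 3.48 and 3.9 to 19.4 and 15.1 TPM (log2 difference 1.95 ± 0.19, limma adjusted p = 1.1e-05) and on EB day 8 from 8.23 and 7.78 to 17.8 and 16.8 TPM (log2 difference 1.02 ± 0.19, limma adjusted p = 0.0016).

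Ccdc172 rose on EB day 8 from 0.0638 and 0 to 2.17 and 2.07 TPM (log2 difference 1.60 ± 0.16, limma adjusted p = 1.8e-05). Olfr118, an olfactory receptor gene, rose in NPC from 0.469 and 0.514 to 14.6 and 15.3 TPM (log2 difference 3.42 ± 0.18, limma adjusted p = 1.2e-08). Sytl3, which links vesicles to Rab proteins, rose on EB day 3 from 0.118 and 0.0384 to 4.69 and 4.53 TPM (log2 difference 2.38 ± 0.24, limma adjusted p = 1.1e-05). All 3 stood below 1 TPM in the WT libraries of those stages. Dynlt1-ps1, a pseudogene, was listed at 0 and 0 TPM in ESC WT, 12.1 and 21.7 TPM in ESC Pcgf2 KO and 0 and 10.7 TPM on EB day 3 in Pcgf2 KO, so the 2 libraries of that last group lay far apart.

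In WT cells, 55 of the 83 genes stayed below 1 TPM in all 8 libraries, including all but 1 of the 24 early embryo genes, and 13 reached 3 TPM or more in both libraries of a later stage. Between WT EB day 3 and WT EB day 8, 16 rose and 10 fell, against 33.6% and 24% of all genes, and between WT EB day 8 and WT NPC 12 rose and 11 fell, against 38.1% and 20.1%. The share that rose and the share that fell were lower than those of all genes in both. The 83 passed the filter through ESC Pcgf2 KO, and 55 stayed below 1 TPM in WT, so few could be called here. The second count of 23 called was 13 with a filter of 5 TPM. Of the 24 early embryo genes 0 were called in either comparison. The largest of these WT changes was that of Nefm, higher in NPC than on EB day 8 by 4.15 log2 units (limma adjusted p = 1.5e-09). In the Pcgf2 KO, 31 of the 83 held 3 TPM or more in both libraries on EB day 3, 11 on EB day 8 and 51 in NPC. In WT of the same stages 6, 9 and 9 of the 83 did, so the genotypes were close on EB day 8. Of 21439 other genes silent in ESC WT, a set that differs from the 83 by the rule, 1.1%, 3.18% and 3.61% did in the Pcgf2 KO. Only 7 of the 83 held 3 TPM or more in both libraries at all 4 stages of the Pcgf2 KO. They were Cbx8, Igtp, Limch1, Mfap4, Miip, Pdzrn3 and Xlr3b. Another 3 (Ido2, Osm and Zscan5b) stayed below 1 TPM in every library of the first table other than ESC Pcgf2 KO.

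The second table gave values for 76 of the 83 genes, 71 by symbol and 5 by a RefSeq synonym. In ESC Phc1 KO and in ESC Phc1-SAM KO, 17 of the 76 (22.4%) held 3 TPM or more in both libraries, beside 2.36% and 0.433% of the other genes silent in ESC WT of the first table. In NPC Phc1 KO 39 did (51.3%) and in NPC Phc1-SAM KO 38 (50%), beside 3.57% and 3.46%. Those held in all 4 ESC libraries were Abhd3, Anxa8, Cbx8, Eif4a3l1, Eif4a3l2, Limch1, Npy, Snx20 and Tmem92. Tmem92 stood at 5.06 and 4.91 TPM in ESC Phc1 KO and 4.5 and 5.32 TPM in ESC Phc1-SAM KO, and at 74.5 and 76.9 and 56.6 and 62.6 TPM in NPC of these genotypes. Summed over the 18 early embryo genes, ESC Phc1 KO held 45.5 and 48.6 TPM, ESC Phc1-SAM KO 46.9 and 45.3 TPM, NPC Phc1 KO 285 and 282 TPM and NPC Phc1-SAM KO 249 and 241 TPM. These sums lay between those of WT and Pcgf2 KO of the same stage in the first table, a comparison with no test. The naive list summed to 3354 and 3303 TPM in NPC Phc1 KO and 2954 and 2897 TPM in NPC Phc1-SAM KO, and the trophectoderm list to 1631 and 1646 TPM and to 1868 and 1825 TPM.

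Within the second table, Phc1 KO was compared with Phc1-SAM KO over 15775 genes, which included 73 of the 76. In ESC 13 of the 73 were higher and 5 lower in Phc1 KO, against 30.9% and 12.8% of all genes. That split rested on the scaling, with 7 higher and 8 lower after median-of-ratios scaling and 5 higher and 28 lower after quantile normalization, and the count of 18 called was 10 with a filter of 5 TPM or with the compared groups alone, 11 without ESC Phc1 KO replicate 2 and 9 without ESC Phc1-SAM KO replicate 1. In NPC 1 was higher and 1 lower, against 2.52% and 1.52%, by limma with Benjamini-Hochberg adjustment, while 16 passed at an unadjusted p of 0.05. That count of 2 called ran from 0 to 6 over the alternatives. Of the 18 early embryo genes tested, 1 was called in each stage. Zscan4b was higher in ESC Phc1 KO (log2 difference 0.35 ± 0.11, limma adjusted p = 0.044), a call that ended without any 1 of the 4 ESC libraries (limma adjusted p from 0.086 to 0.15). Pramel19 was higher in NPC Phc1 KO (log2 difference 0.53 ± 0.11, limma adjusted p = 0.049), a call that ended without any 1 of the 4 NPC libraries (limma adjusted p from 0.16 to 0.24).

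Pdzrn3 had the largest called difference between the 2 genotypes in ESC, at 6.74 and 6.18 TPM in ESC Phc1 KO and 1.61 and 1.31 TPM in ESC Phc1-SAM KO (log2 difference 1.60 ± 0.10, limma adjusted p = 3.9e-05). H2-DMb1 was higher in Phc1 KO too, at 3.14 and 3.37 TPM against 0.516 and 0.692 TPM (log2 difference 1.41 ± 0.15, limma adjusted p = 0.00042). Pgbd5, a gene derived from a transposase, was lower in Phc1 KO, at 1.94 and 2.37 TPM against 4.62 and 4.83 TPM (log2 difference -0.86 ± 0.11, limma adjusted p = 0.0011). The groups did not overlap in these 3 genes. Fibroblast genes moved with this comparison, at 2881 and 2949 TPM summed in ESC Phc1 KO and 875 and 847 TPM in ESC Phc1-SAM KO, with 19 of 19 tested higher in Phc1 KO. Their part in these values was not tested.

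RefSeq promoter windows of 300 bases were found for 49 of the 83 genes, 60 windows in all. A window counted as rich in CpG, the dinucleotide that canonical PRC1 sites are known to hold in number, if its GC content was at least 50% and its ratio of observed to expected CpG at least 0.6. By this rule 18 of the 60 windows (30%) were rich, against 33.5% of all 32851 windows of the RefSeq table and 45.6% of those of genes in the first expression table. The early embryo genes had 10 windows, from 9 of the 24 genes, of which 0 were rich, with a median of 2.5 CG. Sp110 gave more than 1 of these, and the windows of Zscan4b and Zscan4d, and of Usp17lb and Usp17lc, are alike as given above. The 10 are thus not independent cases. Of the 50 other windows 18 were rich (36%), with a median of 9 CG. The windows of Cbx8 (chr11:119040864-119041163, minus strand) and Limch1 (chr5:66745639-66745938, plus strand), which stood at 3 TPM or more in all knock-out groups, are shown for contrast with those of Zscan4d and Usp17lb, again with each CG in capitals.
Cbx8: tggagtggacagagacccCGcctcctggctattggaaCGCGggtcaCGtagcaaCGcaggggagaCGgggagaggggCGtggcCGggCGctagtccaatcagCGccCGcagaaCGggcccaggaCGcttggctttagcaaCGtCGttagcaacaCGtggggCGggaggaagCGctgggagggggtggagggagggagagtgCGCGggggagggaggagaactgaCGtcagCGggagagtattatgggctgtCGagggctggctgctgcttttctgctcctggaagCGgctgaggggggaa
Limch1: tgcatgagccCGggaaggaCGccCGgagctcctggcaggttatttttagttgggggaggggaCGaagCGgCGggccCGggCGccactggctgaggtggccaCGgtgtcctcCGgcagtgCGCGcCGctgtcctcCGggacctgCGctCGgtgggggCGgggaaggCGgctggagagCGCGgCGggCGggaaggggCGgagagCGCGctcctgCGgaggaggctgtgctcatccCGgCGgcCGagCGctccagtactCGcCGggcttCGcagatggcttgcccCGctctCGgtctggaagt
They hold 24 and 35 CG. Limch1 has 3 RefSeq windows, and the first is shown. Its others, at chr5:66857219-66857518 and chr5:66968178-66968477, hold 2 and 10 CG and do not count as rich. Which start these cells used cannot be told from TPM.

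**Figure D5:**
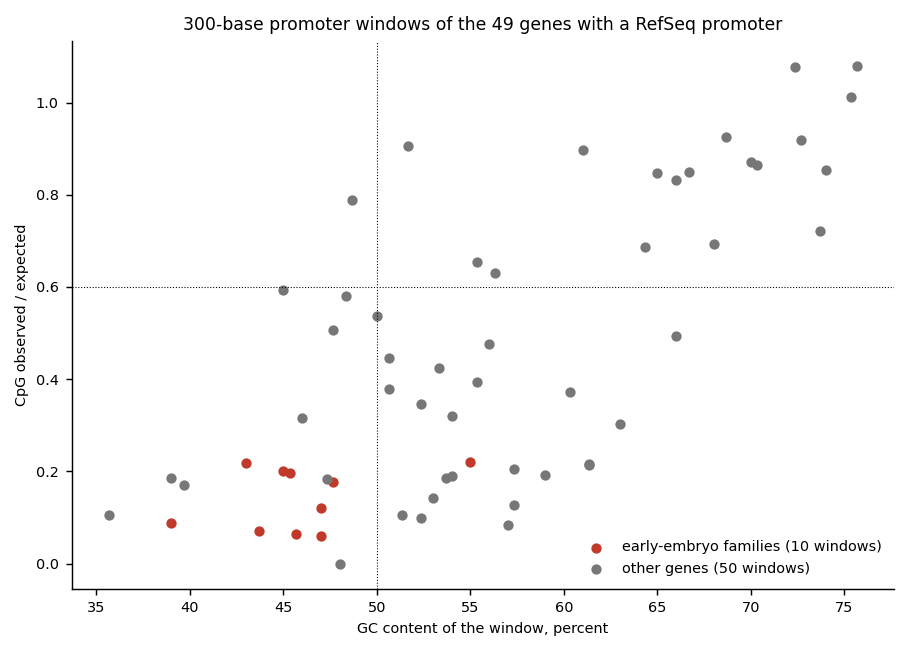
Each point is a promoter window, by GC content in percent and ratio of observed to expected CpG; dotted lines mark the limits of 50% and 0.6. The 10 windows of early embryo genes lie at low CpG ratios and are not independent cases. None of them is in the upper right field, which holds 18 windows of other genes.

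Motifs were searched on both strands of the same windows. CACGTG, an E-box, was in 8.33% of the 60 windows and 7.15% of all windows, and GCGGGAA, a form of the E2F motif, was in 6.67% and 4.6%. TATAAA, a core promoter motif, was searched after the sequences had been seen. It was in 18.3% of the 60 windows, in 5 of the 10 early embryo windows (50%) and in 13.6% of all windows. Those 5 belong to Zscan4b, Zscan4d, Usp17lb, Usp17lc and Pramel31. The Zscan4 windows are 97.7% identical and the Usp17l windows 81.5%, so the 5 are not independent cases. By position, 22 of the 77 genes with a RefSeq position lay in 9 clusters of such genes within 1 Mb of each other. The same share for other genes was not computed, so 22 cannot be called many or few. Several clusters hold copies of 1 family, as for Zscan4, Obox4, Pramel and Usp17l. The largest, at chr7:10900740-11614112 (GRCm38.p6), held Zscan4b, Zscan4-ps1, Zscan4d and Zscan4-ps3. Another at chr17:33873727-34316674 held Smim40-ps, H2-DMb1 and H2-Eb1, and one at chr13:119845361-120318261 held D13Ertd608e, BC147527 and Tcstv3.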

How the data were processed

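The authors deposited 2 tables of TPM (each gene's level corrected for transcript length and scaled to the same total in every library) for RNA-seq libraries, per the file headers. The submitters' processing notes name kallisto, DESeq2, STAR, SAMtools, BWA, deepTools and MACS2 with no versions, and the mm10 build, without saying which steps made the tables. Neither read counts nor depth can be had from TPM, so depth per library is unknown, no counting interval was given, and how reads shared by gene copies were divided is not stated. Between 13131 and 15374 genes held 1 TPM or more in a library, and replicate libraries correlated across genes with r from 0.992 to 0.995. Another 4 columns of the second table, named ESC WT and NPC WT, were not used: they sum to 381098 to 502815 TPM with a median gene at 0, so what they hold is in doubt. ChIP-seq and Hi-C samples were not analysed here.

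The 83 genes and all gene lists were chosen with earlier results of these data known. Genes that reached 1 TPM in 2 libraries or more were tested on log2(TPM + 1), so differences of low genes are understated against fold changes of TPM. Limma 3.58.1 (R 4.3.3) was run with 1 mean per group, all libraries of a table sharing the spread, an intensity trend and two-sided tests. Benjamini-Hochberg adjustment covered all genes of a table at 0.05. The test was checked on simulated data with known changes. Genes were named by rule: the 20 highest in ESC Pcgf2 KO, those on a gene list, up to 6 with the largest called rise and 6 with the largest called fall per comparison (3 TPM or more in 1 group, no overlap), those nearest the limits, and up to 10 at 3 TPM or more in all ESC libraries of the second table or 5 below 1 TPM outside ESC Pcgf2 KO. Others, named for their role, were chosen after their values were seen. Same-numbered libraries did not deviate together (correlations from −0.061 to 0.095 over 2 pairs), so numbers were not taken as pairs. Promoter windows and positions came from RefSeq tables of GRCm38.p6, read with Python 3.11.15 and pandas 2.3.3. Alternatives were other pseudocounts, filters, scalings, the compared groups alone, a replicate block and each library left out.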

Additional observations from a re-analysis of the deposited data

Results flagged for a closer look

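The Pcgf2 KO effect on the 83 genes differed between stages by a contrast of the limma fit. Between EB day 3 and EB day 8 it differed for 46 genes. The effect was smaller on EB day 8 for Tmem92 (−3.46 log2 units), Eif4a3l1 (−2.94), Eif4a3l2 (−2.59), Pramel19 (−2.56), Usp17le (−2.49) and Zscan4-ps3 (−2.45). It was larger on EB day 8 for Xlr3b, by 1.00 log2 units. Both KO libraries of Xlr3b lay higher on EB day 8 than on EB day 3.

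Between EB day 8 and NPC the effect differed for 60 genes. It was larger in NPC for Tmem92 (5.92 log2 units), Eif4a3l1 (5.87), Eif4a3l2 (5.66), Pramel19 (5.29), Pramel31 (4.78) and Zscan4b (4.44). It was smaller, or more negative, in NPC for Nefm (−3.08), Nxf3 (−2.35), Mfap4 (−2.30) and Xlr3b (−0.843). The same held for Igtp (−0.565) and Pdzrn3 (−0.445), whose calls ended when 1 of several libraries was left out (limma adjusted p from 0.055 to 0.11 for Igtp and from 0.066 to 0.10 for Pdzrn3). The WT libraries of EB day 8 enter both contrasts and stood apart in transcripts of the Y chromosome, as given above, and the part of this in the contrasts was not tested.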

How the results depend on the processing

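The counts of genes higher on EB day 3 and in NPC stayed within 1.5 times under every alternative run (61 to 65 and 62 to 65 with 1 library left out). On EB day 8 the 35 higher genes became 21 with a pseudocount of 5, 23 with quantile normalization and 13 with the replicate block, in which same-numbered libraries were paired. The 4 lower genes of EB day 3 were 2 to 3 with 1 library left out, and the 5 lower genes of NPC were 3 with a filter of 5 TPM. The 23 genes called between WT EB day 8 and WT NPC were 13 with that filter and 15 with the replicate block.

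Between Phc1 KO and Phc1-SAM KO in ESC, the 18 genes called were 10 with the filter of 5 TPM, 33 with quantile normalization, 10 with the compared groups alone, 7 with the replicate block and 9 to 16 with 1 library left out. In NPC the 2 called were 0 with a pseudocount of 0.1, 6 with one of 5, 0 without a filter, 1 with median-of-ratios scaling, 1 with quantile normalization, 0 with the compared groups alone, 0 with the replicate block and 0 to 0 with 1 library left out. The causes were not tested, but the filter of 5 TPM leaves fewer genes and the compared groups alone fewer libraries. With the limit in WT at 0.5 TPM the rule took 34 genes, with the limit in Pcgf2 KO at 5 TPM 32, and with 1 library left out 96 to 115. Over all genes, the 6767 called on EB day 8 became 1367 with the replicate block, the 10444 called between WT EB day 8 and WT NPC became 6554, and the 637 between Phc1 KO and Phc1-SAM KO in NPC became 0, or 76 with the compared groups alone and 65 to 150 with 1 library left out.

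With median-of-ratios scaling the split of all genes moved from 3692 higher and 3075 lower to 3172 and 3871 on EB day 8, and from 4700 and 2266 to 2921 and 3292 for the effect between EB day 3 and EB day 8. It moved from 6831 and 3613 to 4765 and 5136 between WT EB day 8 and WT NPC, and from 4877 and 2027 to 3241 and 4215 between Phc1 KO and Phc1-SAM KO in ESC. With quantile normalization the split between WT EB day 3 and WT EB day 8 moved from 6024 higher and 4313 lower to 4821 and 5893. Of 1001 alternative values for single genes, 936 kept direction and call, 65 lost the call and 0 turned direction. TPM gives no depth, so no limit of detection could be set for genes near 0.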
